A study of Mus musculus with 8 samples.

Results

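Neutrophil genes were followed in whole lungs of mice with K-ras mutant lung tumors, with and without the STAT3 inhibitor TTI-101. The group held 9 of the 54532 genes in the deposited count table, found by gene symbol. The mature or all-stage genes were S100a8, S100a9, Retnlg, Csf3r, Cxcr2 and Ly6g (6 genes), and the granule precursor genes were Camp, Ngp and Ltf (3 genes). All 8 lungs came from CC-LR mice on a C57BL/6 background, which carry an LSL-K-rasG12D allele and Cre recombinase at the club cell secretory protein (CCSP) locus, so that mutant K-ras is switched on in lung epithelium and tumors arise from it. The Control group (4 mice) and the TTI-101 group (4 mice) were both 14 weeks old, and the TTI-101 mice had received the inhibitor for 4 weeks, from 10 weeks of age. The labels call the untreated arm Control and name no vehicle, and neither the route nor the dose for these particular mice is given in the sources used here. One library was made per mouse, and the comparison addressed how 4 weeks of STAT3 inhibition changed the lung transcriptome.

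Neutrophils mature in the bone marrow, and their granule proteins are made in stages. Promyelocytes make azurophil granule proteins such as Mpo and Elane, the later myelocytes make specific granule proteins such as Camp, Ngp and Ltf, and the gelatinase granules are filled later still. By the time a neutrophil leaves for the blood and lung, most of these transcripts have been shut off, while S100a8, S100a9, Csf3r and Cxcr2 are still transcribed. STAT3 acts downstream of the G-CSF receptor encoded by Csf3r, which drives neutrophil production and release.

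Library totals ranged from 16075855 to 26873509 counts. Control mouse 4 stood apart from the other 7 mice on the first principal component of log2 CPM (101 against -39.3 to 17.9, with 45.2% of the variance), and 5.56% of its counts were mitochondrial, against 2.01% to 2.85% in the other 7. Fold changes, medians and ratios of the members are therefore also given without it. Xist was at 400.2 CPM or more in mice 1 and 2 and Ddx3y at 48.0 CPM or more in mice 3 and 4 of both groups, so each group held lungs of both sexes in equal number. Lung markers were abundant, with the surfactant gene Sftpc between 16673 and 40617 CPM. Expression is given as CPM, each library's counts being divided by its TMM-corrected size.

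The stretches upstream of the RefSeq start sites of 5 members are shown, because S100a8, S100a9 and Cxcr2 kept close to fixed proportions across the 8 lungs while Ltf and Ngp, both granule genes, did not. Each is read 5′ to 3′ on the gene's strand from GRCm38.p6, from 250 bases before the RefSeq start up to the boundary of the deposited gene model. Capitals mark matches, on either strand, to a C/EBP motif (TTGCNNAA) or a PU.1 motif (GAGGAA), both being factors of the myeloid lineage.
S100a8, chr3:90668821-90668977, plus strand: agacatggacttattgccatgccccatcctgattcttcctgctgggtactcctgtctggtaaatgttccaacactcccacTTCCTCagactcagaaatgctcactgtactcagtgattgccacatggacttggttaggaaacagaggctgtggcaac
S100a9, chr3:90695722-90695971, minus strand: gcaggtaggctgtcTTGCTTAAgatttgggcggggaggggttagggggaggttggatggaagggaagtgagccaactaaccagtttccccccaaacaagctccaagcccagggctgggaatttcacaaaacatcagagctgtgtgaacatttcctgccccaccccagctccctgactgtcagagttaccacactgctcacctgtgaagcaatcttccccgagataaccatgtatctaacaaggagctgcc
Cxcr2, chr1:74153744-74153988, plus strand: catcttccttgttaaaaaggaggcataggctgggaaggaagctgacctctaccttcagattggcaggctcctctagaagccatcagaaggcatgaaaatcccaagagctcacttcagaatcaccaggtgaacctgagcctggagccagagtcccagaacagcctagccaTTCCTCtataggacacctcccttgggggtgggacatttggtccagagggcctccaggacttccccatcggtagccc
Ngp, chr9:110419558-110419746, plus strand: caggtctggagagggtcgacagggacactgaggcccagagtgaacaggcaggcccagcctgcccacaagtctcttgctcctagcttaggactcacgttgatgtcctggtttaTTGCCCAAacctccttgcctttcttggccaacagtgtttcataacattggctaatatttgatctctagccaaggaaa
Ltf, chr9:111019042-111019270, plus strand: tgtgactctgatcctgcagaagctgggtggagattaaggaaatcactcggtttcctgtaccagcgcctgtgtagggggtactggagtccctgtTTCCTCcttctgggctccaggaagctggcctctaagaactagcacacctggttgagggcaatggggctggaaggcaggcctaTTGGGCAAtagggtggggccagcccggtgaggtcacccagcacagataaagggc

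All 9 members matched a RefSeq entry, with 10 windows of 250 bases since Ly6g had 2 start sites. The C/EBP letters were in 5 of the 10 windows (S100a9, Retnlg, Ngp, Ltf and 1 of Ly6g) and in 9.56% of all 32851 windows. The PU.1 letters were in 6 of the 10 windows (S100a8, Csf3r, Cxcr2, Ltf and both of Ly6g) and in 23.3% of all windows. The 2 Ly6g windows overlap and hold the same 2 PU.1 matches, which are thus counted in both. A STAT motif (TTCNNNGAA) was in 0 of the 10 windows and in 7.02% of all windows. These 3 motifs do not overlap one another in the windows shown, and they were chosen after the expression values had been seen. A match is a stretch of letters only, and its absence here says nothing of binding elsewhere. A second C/EBP match of Ngp and a second PU.1 match of S100a8 lay inside the deposited gene models and are not printed. The only PU.1 match of Csf3r, counted above, also lay inside its gene model. For Retnlg, Csf3r and Camp the bases just after the RefSeq start were not found in the reference transcripts searched, so those starts are less certain.

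No member passed the comparison of TTI-101 with Control lungs, made by the quasi-likelihood test of edgeR over 17138 genes with Benjamini-Hochberg adjustment. Of the 9 members, 6 passed the filter on low counts, and 0 of these 6 passed an adjusted threshold of 0.05, as did 0% of all tested genes. At an unadjusted p under 0.05 the count was also 0 of 6, against 6.61% of all tested genes (3.02% higher and 3.58% lower in TTI-101 lungs). In none of the 6 were the 4 TTI-101 lungs all above or all below the 4 Control lungs, as they were in 2.96% of tested genes. limma-voom called 0 of the 6 members at an unadjusted p under 0.05 (6.38% of tested genes), and DESeq2, which tested all 9, called 1 (5.32% of tested genes), which was Ngp (unadjusted p = 0.0196), and 0 after adjustment. Without Control mouse 4, 7 members passed the filter and 0 of them had an unadjusted p under 0.05 in edgeR, against 3.03% of the 17548 genes then tested.

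**Figure D1:**
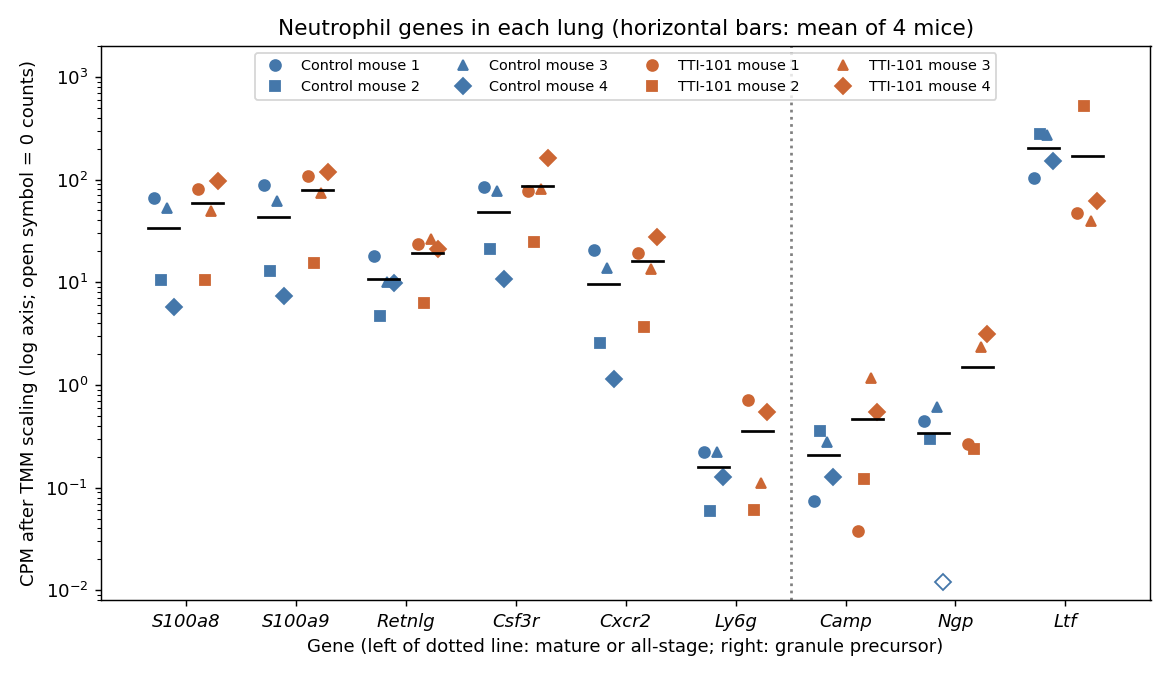
Expression of the 9 members in each lung as CPM after TMM scaling, on a log axis, with Control mice in blue, TTI-101 mice in orange, a symbol shape for each mouse number and a bar at the mean of 4 mice. S100a8, S100a9, Csf3r and Cxcr2 were low in the same 3 lungs (Control mice 2 and 4 and TTI-101 mouse 2), Ltf was highest in 1 of them (TTI-101 mouse 2), and the groups overlapped for every member.

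S100a8 and S100a9 encode the subunits of calprotectin, the most abundant cytosolic protein of neutrophils. S100a8 (ENSMUSG00000056054, chromosome 3, 90668978 to 90670035, GRCm38) was at 65.4, 10.5, 53.2 and 5.76 CPM in Control mice 1 to 4 and at 80.8, 10.4, 49.6 and 96.0 CPM in TTI-101 mice 1 to 4. Control mice 2 and 4 and TTI-101 mouse 2 were low and the other 5 lungs high, so the spread lay within the groups and the groups overlapped. The fitted log2 fold change of S100a8 was 0.81 (standard error, SE, 0.77, edgeR quasi-likelihood adjusted p = 0.754). S100a9 (ENSMUSG00000056071, chromosome 3, 90692632 to 90695721) was at 88.9, 12.9, 62.2 and 7.36 CPM in Control and 108, 15.3, 74.3 and 119 CPM in TTI-101 lungs. The same 3 lungs were low, and only TTI-101 mice 1 and 4 lay above the highest Control lung. Between mice of the same number, 1 to 4, TTI-101 over Control was 1.22, 1.19, 1.19 and 16.2-fold for S100a9. For S100a8 it was 1.23, 0.99, 0.93 and 16.7-fold, so a large difference was seen for number 4 alone. For S100a9 the log2 fold change was 0.88 (SE 0.76, edgeR quasi-likelihood adjusted p = 0.733). Without Control mouse 4 these values were 0.47 for S100a8 and 0.55 for S100a9, and without Control mouse 1 they were 1.35 and 1.53.

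Csf3r and Cxcr2 encode the receptors for G-CSF and for the chemokines that draw neutrophils into tissue. Csf3r (ENSMUSG00000028859, chromosome 4, 126024550 to 126044440) was at 85.3, 20.9, 76.9 and 10.8 CPM in Control and 77.6, 24.6, 81.6 and 162 CPM in TTI-101 lungs. TTI-101 mouse 4 alone lay above the Control range, and the order of the low lungs was that of S100a9. Its log2 fold change was 0.83 (SE 0.66, edgeR quasi-likelihood adjusted p = 0.709), 0.34 without TTI-101 mouse 4 and 0.52 without Control mouse 4. Cxcr2 (ENSMUSG00000026180, chromosome 1, 74153989 to 74161246) was at 20.8, 2.57, 13.8 and 1.15 CPM in Control and 19.3, 3.66, 13.6 and 27.3 CPM in TTI-101 lungs. Control mouse 4 was again lowest and TTI-101 mouse 4 again highest, with 3 TTI-101 lungs inside the Control range. The log2 fold change of Cxcr2 was 0.72 (SE 0.79, edgeR quasi-likelihood adjusted p = 0.786), and 0.35 without TTI-101 mouse 4 or 0.37 without Control mouse 4.

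Retnlg encodes resistin-like gamma, a secreted protein of mature neutrophils. Retnlg (ENSMUSG00000022651, chromosome 16, 48872621 to 48874496) was at 18.2, 4.72, 10.2 and 9.85 CPM in Control and 23.5, 6.24, 26.6 and 21.0 CPM in TTI-101 lungs. Here 3 of the 4 TTI-101 lungs lay above every Control lung and TTI-101 mouse 2 lay above only the lowest, while Control mouse 4 was not low. The log2 fold change of 0.84 had the smallest SE of the 6 tested members (0.46, unadjusted p = 0.0956, edgeR quasi-likelihood adjusted p = 0.657), and it was 0.81 without Control mouse 4. Ly6g (ENSMUSG00000022582, chromosome 15, 75155240 to 75159126), the surface antigen by which mouse neutrophils are usually sorted, had 6, 1, 4 and 2 counts in Control and 19, 1, 2 and 9 counts in TTI-101 lungs. Those counts were too low to pass the filter, and the 2 lungs with the most (TTI-101 mice 1 and 4) were also the 2 highest for S100a9. With no filter the log2 fold change of Ly6g was 1.17 (SE 0.91, edgeR quasi-likelihood adjusted p = 0.678), and 1.08 without Control mouse 4. How reads shared with other Ly6 family genes were counted is not given in the sources used here.

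Across the 8 lungs, S100a8, S100a9 and Cxcr2 kept nearly fixed proportions to each other, and Csf3r followed them more loosely. S100a8 had between 66.8 and 85.5 counts for every 100 of S100a9, while S100a9 itself spanned 16.2-fold from lowest to highest lung. The SD of the log2 ratio over the 8 mice was 0.12 for S100a8 to S100a9, 0.20 for S100a9 to Cxcr2, and 0.41 for S100a9 to Csf3r. Retnlg followed less closely, at 0.99 against S100a9. These ratios share the depth of each library and are descriptions over 8 mice. By the root mean square difference of centred log2 CPM over the 8 mice, the tested genes most like S100a9 were S100a8 (0.12), Cxcr2 (0.19) and the Schlafen gene Slfn4 (0.38). The median of this measure over tested genes was 1.26 for Csf3r and 1.55 for Cxcr2. Those most like Csf3r were Slfn4 (0.20), Il1b (0.30) and Slfn1 (0.33), and after S100a9 and Cxcr2 the gene most like S100a8 was Mmp8, the neutrophil collagenase (0.36). Retnlg had other neighbours, Pilra (0.22), Treml2 (0.30) and Pcdhga5 (0.32).

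The spread between mice of 1 group was itself large for these genes. Within-group SD of log2 CPM placed Cxcr2 at percentile 99.5 of all tested genes, S100a8 and S100a9 at 99.4, Ltf at 98.7, Csf3r at 98.6 and Retnlg at 93.9. From lowest to highest lung, Cxcr2 spanned 23.7-fold, S100a8 16.7-fold, Csf3r 15.0-fold, Ltf 13.2-fold and Retnlg 5.64-fold. Since each library is whole lung, fewer neutrophils and less RNA per neutrophil cannot be told apart, nor can counts from other cells that express these genes. The leukocyte genes Ptprc, Coro1a, Laptm5 and Cd52 together ranged from 313 to 714 CPM in Control and from 478 to 854 CPM in TTI-101 lungs, with 0 of 4 at an unadjusted p under 0.05, and their part in these values was not tested.

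**Figure D2:**
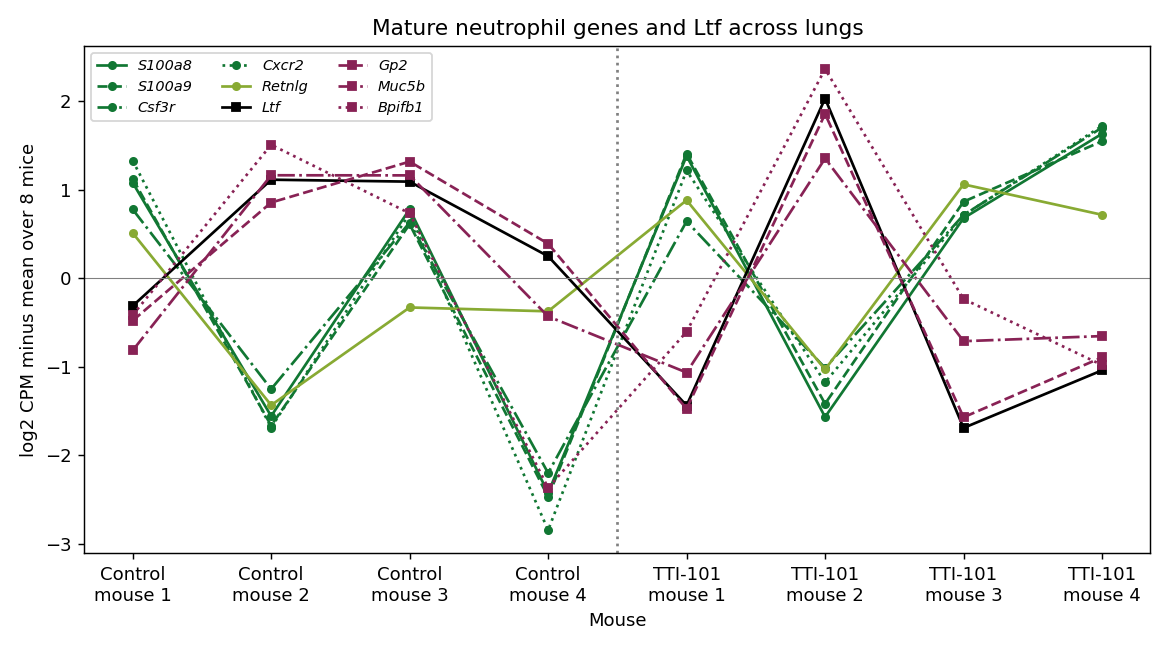
Log2 CPM minus its mean over the 8 mice (vertical axis) for each mouse (horizontal axis), with mature neutrophil genes in green, Ltf in black and airway or Ltf-like genes (Gp2, Muc5b, Bpifb1) in purple. The green lines dip together in Control mice 2 and 4 and TTI-101 mouse 2, Retnlg (light green) departs from them in Control mouse 4, and Ltf peaks in TTI-101 mouse 2, where the green lines are low.

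Ltf encodes lactoferrin, an iron-binding protein of the specific granule that airway glands and secretory epithelium also make. Ltf (ENSMUSG00000032496, chromosome 9, 111019271 to 111042767) was at 103, 278, 274 and 153 CPM in Control and 47.4, 525, 39.7 and 62.4 CPM in TTI-101 lungs. TTI-101 mice 1, 3 and 4 lay below every Control lung and TTI-101 mouse 2 lay above every one. With all 8 mice the log2 fold change was -0.26 (SE 0.77, edgeR quasi-likelihood adjusted p = 0.931), without Control mouse 4 it was -0.37, and without TTI-101 mouse 2 it was -2.00 (SE 0.35, adjusted p = 0.280). The means of log2 CPM differed by -1.07, since a mean of logs gives the 1 high lung less weight.

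Ltf did not vary with the mature neutrophil genes. The SD of the log2 ratio of Ltf to S100a9 over 8 mice was 2.68, and it was 2.23 to 2.67 against the other 4 tested mature members. Against the 10 airway secretory and gland genes the same measure for Ltf ranged from 0.58 (Dmbt1) to 1.44 (Bpifa1), with 0.59 for the gel-forming mucin Muc5b and 0.64 for Muc5ac. S100a9 stood at 1.59 to 3.03 against these 10, so all 10 kept a steadier ratio to Ltf than to S100a9. The genes most like Ltf were Gp2 (root mean square difference 0.18), Gm15997 (0.44) and Agr2 (0.49), the last an endoplasmic reticulum protein of mucus-secreting cells, against a median of 1.30. Muc5b ran at 68.1, 269, 268 and 88.9 CPM in Control and 57.3, 306, 73.2 and 76.2 CPM in TTI-101 lungs, so that its 3 highest lungs (Control mice 2 and 3 and TTI-101 mouse 2) were the 3 highest for Ltf as well. Of the airway list, 1 of 10 (Scgb1a1, lower in TTI-101 lungs) had an unadjusted p under 0.05 and 0 of 10 passed after adjustment. Its summed level was 14301 to 33419 CPM in Control and 11424 to 26796 CPM in TTI-101 lungs. What share of the Ltf counts came from either source was not tested.

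Camp and Ngp, which encode the cathelicidin precursor and neutrophilic granule protein, were close to the limit of detection. Camp (ENSMUSG00000038357, chromosome 9, 109847379 to 109849617) had 2, 6, 5 and 2 counts in Control and 1, 2, 21 and 9 counts in TTI-101 lungs. Only TTI-101 mice 3 and 4 exceeded the Control range, and TTI-101 mouse 1 had the fewest. Ngp (ENSMUSG00000032484, chromosome 9, 110419747 to 110423012) had 12, 5, 11 and 0 counts in Control and 7, 4, 42 and 52 counts in TTI-101 lungs. The same TTI-101 mice 3 and 4 were high, and the 0 counts of Control mouse 4 allow up to 3 counts, or 0.192 CPM, counting error only. Without the filter the log2 fold changes were 1.16 for Camp (SE 0.92) and 2.09 for Ngp (SE 0.98), both at edgeR quasi-likelihood adjusted p = 0.678. Without Control mouse 4 they were 1.00 and 1.70, and without TTI-101 mouse 3 that of Camp was 0.14.

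Set beside S100a9 within each lung, which needs no scaling between libraries, none of the granule precursor genes passed a test between groups. There were 0.495, 2.33, 0.980 and 0 Ngp counts per 100 S100a9 counts in Control lungs and 0.244, 1.57, 3.14 and 2.65 in TTI-101 lungs, with TTI-101 mice 3 and 4 above every Control lung and TTI-101 mouse 1 above only the lung at 0. The log2 ratio of Ngp to S100a9 was higher by 0.69 in the TTI-101 group (two-sided exact permutation test, p = 0.486), that of Camp was lower, with a difference of -0.76 (exact p = 0.629), and that of Ltf differed by -2.27 (exact p = 0.229). After Benjamini-Hochberg adjustment over these 3 ratios each exact p was 0.629, where 4 against 4 mice cannot give an unadjusted p below 0.0286. Ltf counts per 100 of S100a9 were 116, 2161, 439.6 and 2074 in Control and 43.8, 3441, 53.5 and 52.3 in TTI-101 lungs, with the same TTI-101 mouse 2 far above the other 3. Without Control mouse 4 the differences were 0.35 for Ngp, -0.26 for Camp and -1.74 for Ltf, with exact p of 0.743, 0.971 and 0.400. With each mouse left out in turn, the Ngp difference ran from 0.30 (without TTI-101 mouse 3) to 1.498 (without TTI-101 mouse 1), and it was 0.21 with a prior count of 2. The Ltf difference ran from -1.70 (without TTI-101 mouse 1) to -3.80 (without TTI-101 mouse 2, exact p = 0.0571), and that of Camp from -1.72 to 0.27.

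**Figure D3:**
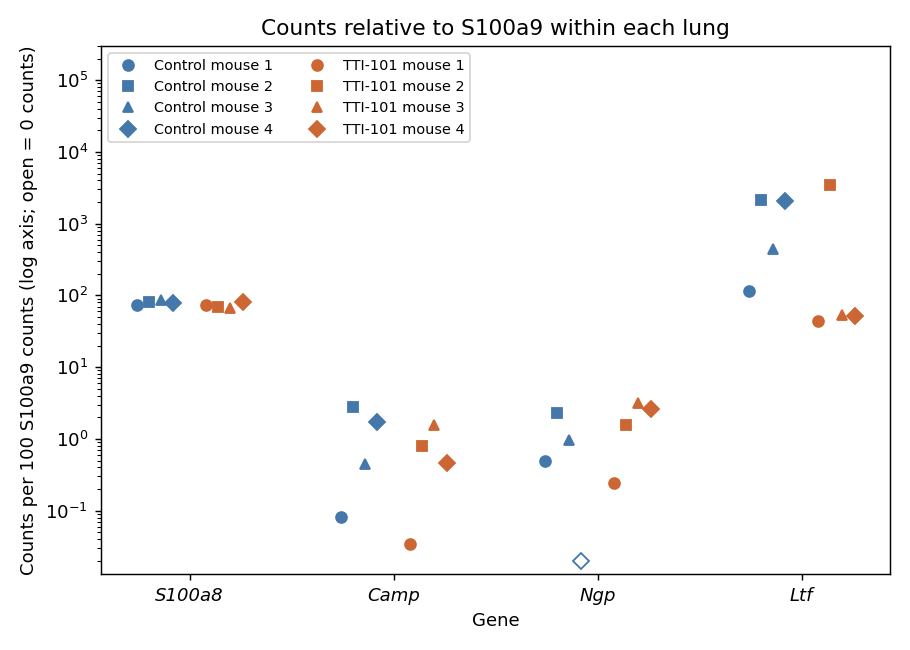
Counts of S100a8, Camp, Ngp and Ltf per 100 counts of S100a9 in each lung, on a log axis, with Control mice in blue and TTI-101 mice in orange. S100a8 stays between 66.8 and 85.5 in all 8 lungs, Camp and Ngp stay at or under 3.14, and Ltf runs from 43.8 to 3441.

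The mature and the granule precursor genes were then set side by side. Over all members, with no filter so that low genes count, the median log2 fold change was 0.84 for the 6 mature genes and 1.16 for the 3 granule genes, beside 0.03 for all 31830 genes with a count. Leaving out 1 mouse moved the mature median to between 0.52 (without Control mouse 4) and 1.37 (without Control mouse 1), and the granule median to between 0.14 (without TTI-101 mouse 3) and 1.56 (without TTI-101 mouse 1), with 1.00 without Control mouse 4. Without TTI-101 mouse 4 the mature median was 0.56, and limma-voom put the granule median at 0.39. The granule median is that of Camp and rests on Camp and Ngp, both near the detection limit, and among members that passed the filter Ltf alone was left of the 3, at -0.26. Taking the mean log2 CPM of each set in a mouse, the mature minus granule difference was 1.59 in Control lungs (SD 1.27, n = 4) and 2.27 in TTI-101 lungs (SD 1.54, n = 4), a difference of 0.68 that is smaller than either SD. Leaving Ltf out of the granule set made that difference -0.00. With each mouse left out it ran from 0.03 (without TTI-101 mouse 1) to 1.25 (without TTI-101 mouse 2), with 0.21 without Control mouse 2, 1.22 without Control mouse 1 and 0.52 without Control mouse 4. No p is given for these scores, since the members are a chosen list.

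**Figure D4:**
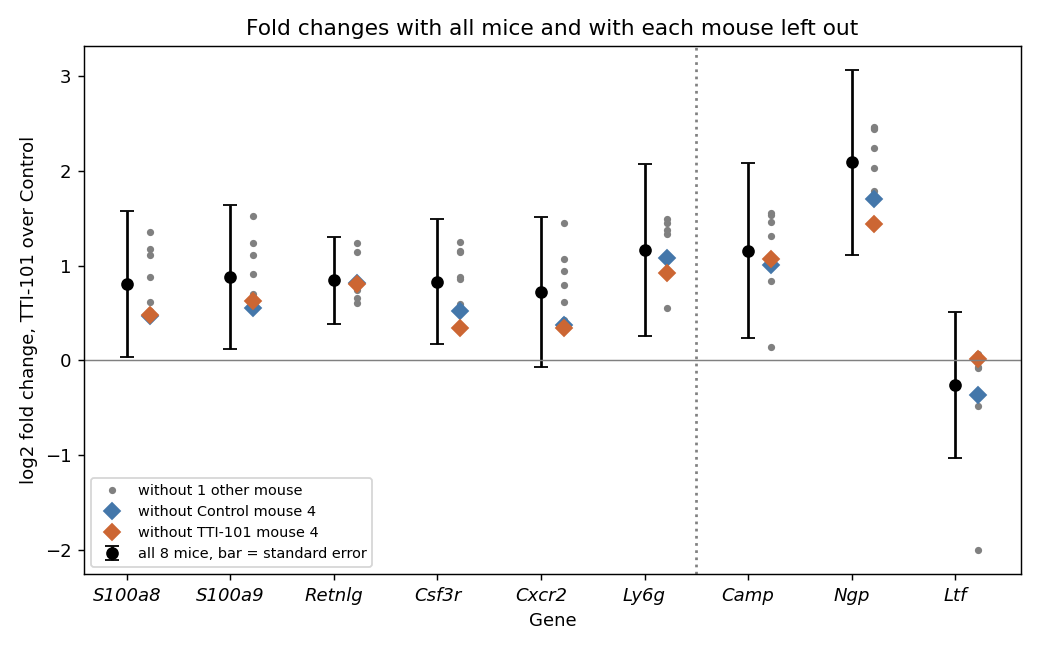
Log2 fold changes of TTI-101 over Control for the 9 members, with all 8 mice (black, bar of 1 SE) and with each mouse left out in turn (grey points, with Control mouse 4 in blue and TTI-101 mouse 4 in orange). Mature genes, Camp and Ngp stay above 0 in every case, from 0.14 to 2.46, and Ltf runs from -2.00 to 0.07.

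Read per kilobase of gene length, S100a9 had the highest mean of the members in Control lungs, at 82.0 ± 75.4 CPM per kb (SD, n = 4), followed by Ltf at 58.5 ± 25.4 and S100a8 at 48.6 ± 43.3. Retnlg, at 18.1 ± 9.39, and Csf3r, at 13.4 ± 10.5, came next, and then Cxcr2 at 3.14 ± 3.08 CPM per kb. Camp and Ngp were both at 0.276 (SD 0.174 and 0.211) and Ly6g at 0.167 ± 0.0834 CPM per kb. The ranges of neighbours in this order overlapped over the 4 Control lungs, although within each Control lung Camp, Ngp and Ly6g lay below Cxcr2. Ltf lay above S100a9 per kb in 3 of the 8 lungs, at 80.5 against 24.6 in Control mouse 2, 44.2 against 14.1 in Control mouse 4 and 152 against 29.2 in TTI-101 mouse 2. In TTI-101 lungs the mean of S100a9 was again highest, at 152 ± 89.6 CPM per kb, S100a8 was at 85.3 ± 54.5 and Ltf at 48.9 ± 68.9.

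The earlier and later granule stages were read from other genes of the pathway. Mpo, the azurophil granule peroxidase, had 0 counts in all 4 Control lungs and 0, 1, 13 and 0 counts in TTI-101 lungs, Ms4a3, a marker of committed granulocyte progenitors, had 0 counts in all 8, and Elane and Ctsg reached at most 3. The exception in this list of 5 was Prtn3 (proteinase 3), which alone passed the filter, at 0.697, 0.777, 0.388 and 0.384 CPM in Control and 1.09, 1.68, 1.06 and 0.851 CPM in TTI-101 lungs. All 4 TTI-101 lungs lay above all 4 Control lungs, at a log2 fold change of 1.04 (SE 0.41, unadjusted p = 0.0298, edgeR quasi-likelihood adjusted p = 0.657). The groups did not overlap in 2.96% of all tested genes. The Prtn3 values rest on 19, 13, 7 and 6 counts in Control and 29, 28, 19 and 14 counts in TTI-101 lungs. TTI-101 mouse 3, which held the 13 Mpo counts, also had the most Camp counts and the second most Ngp counts.

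Of the other specific granule genes, 7 of 8 passed the filter, of which 1 had an unadjusted p under 0.05 and 0 passed after adjustment. This was Lcn2, the siderophore-binding lipocalin that lung epithelium also makes, at 473, 262, 452 and 670 CPM in Control and 192, 415, 142 and 229 CPM in TTI-101 lungs (log2 fold change -0.92, SE 0.35, unadjusted p = 0.0247, edgeR quasi-likelihood adjusted p = 0.657). As with Ltf, TTI-101 mice 1, 3 and 4 lay below every Control lung and TTI-101 mouse 2 lay among them. Lcn2, Cd177, Lyz2 and Pglyrp1 kept a steadier log2 ratio to Ltf (SD 1.01 to 1.18) than to S100a9 (SD 1.80 to 2.44), while Chil3, Cybb and Itgam did the reverse. The same was seen outside the granule genes, in 3 of 7 lung tissue genes and 3 of 5 progenitor and proliferation genes. Among these, Sftpc was at 1.05 to Ltf against 1.95 to S100a9, and Mki67 at 1.17 against 2.21. Cd177 had a log2 fold change of -1.15 (SE 0.53, edgeR quasi-likelihood adjusted p = 0.657), and its highest TTI-101 lung was again mouse 2. Of the 7 that passed the filter, Lcn2, Cd177, Lyz2 and Pglyrp1 were highest in Control mouse 4, where S100a9 was lowest (7.36 CPM). Cd177 was at 136 CPM and Lyz2 at 14578 CPM in that lung. Chil3, Cybb and Itgam were highest in other lungs. Which cells these counts came from was not tested.

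Among gelatinase granule genes, all 5 were tested, 1 had an unadjusted p under 0.05 and 0 passed after adjustment. That gene, Mmp9 (gelatinase B), was at 27.6, 7.41, 13.7 and 4.92 CPM in Control and 36.4, 7.27, 57.9 and 49.7 CPM in TTI-101 lungs. Its log2 fold change was 1.48 (SE 0.62, unadjusted p = 0.0379, edgeR quasi-likelihood adjusted p = 0.657), with 3 TTI-101 lungs above every Control lung, as for Retnlg. Mmp8 was at 0.36 (SE 0.69). Of 16 further mature neutrophil genes, 15 were tested and 0 were under 0.05 even unadjusted. There were 12 positive and 3 negative log2 fold changes. Their median was 0.27, beside 0.003 for all tested genes and 0.45 for the 4 leukocyte genes, which were all positive. In 3 of the 15 the log2 ratio to Ltf was steadier than that to S100a9. Of 7 transcription factors of granulopoiesis, 6 were tested and 0 were under 0.05 unadjusted, and Cebpe, which drives specific granule genes, did not pass the filter.

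The chemokines and growth factors that recruit or produce neutrophils had a median log2 fold change of -0.55 over the 7 of 11 tested. The median over all tested genes was 0.003. Of the 7, 2 were positive and 5 negative, with 0 under an unadjusted p of 0.05. Cxcl3, a ligand of the receptor encoded by Cxcr2, was at -1.36 (SE 0.66) and Cxcl12, which holds neutrophils in the marrow, at 0.37 (SE 0.21). Csf3, the gene of G-CSF, did not pass the filter and was never above 0.192 CPM.

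Markers of other blood cells were read in the same lungs. Of 5 red cell genes, 4 had an unadjusted p under 0.05, all higher in TTI-101 lungs, and 0 passed after adjustment, and the list summed to 58.0 to 264 CPM in Control and 205 to 1586 CPM in TTI-101 lungs. The haemoglobin genes have near-identical copies, so their split is uncertain. By mouse, the red cell sum was 125, 58.0, 80.7 and 264 CPM in Control and 1586, 205, 430 and 624 CPM in TTI-101 lungs. Monocyte genes summed to 450 to 783 CPM in Control and 569 to 1074 CPM in TTI-101 lungs, with 1 of 8 (Nr4a1) under an unadjusted p of 0.05 and 0 adjusted. Fn1 alone was at 255 to 446 CPM in Control and 269 to 616 CPM in TTI-101 lungs. Of the 8, 5 had a positive log2 fold change. The other 3 were negative, namely Ly6c2 (-0.11), Ccr2 (-0.30) and F13a1 (-0.51). Of 7 eosinophil, basophil and mast cell genes, Ccr3 and Cpa3 passed the filter, with positive log2 fold changes (median 1.35) and 0 under an unadjusted p of 0.05. That list summed to 2.33 to 10.3 CPM in Control and 4.44 to 15.6 CPM in TTI-101 lungs, and Ccr3 had 0 counts in Control mice 2, 3 and 4. By the study's methods, lungs frozen for RNA had been lavaged and then perfused through the right ventricle, steps that deplete airspace cells and blood, and the part of what remained of either in the neutrophil gene values was not tested.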

How the data were processed

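Poly(A) RNA of 8 whole lungs was made into stranded TruSeq libraries, sequenced as paired ends and processed by the sequencing provider. The submitters' processing notes name STAR, DESeq2 and build mm10, and the counting tool, its strand setting and the annotation are not given in the sources used here. The authors deposited raw whole-number counts per Ensembl gene for 8 libraries (16075855 to 26873509 per library), with a gene length in bases. The coordinates printed are those in the deposited table.

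In R 4.3.3, edgeR 4.0.16 kept 17138 genes (filterByExpr, minimum count 10), scaled them by TMM and compared TTI-101 with Control by robust quasi-likelihood F-tests without covariates, with Benjamini-Hochberg adjustment. CPM used the same TMM scaling, and log2 CPM a prior count of 2. Members that failed the filter took their values from a fit on all 31830 genes with a count. Count ratios (0.5 added) were compared by two-sided exact permutation tests over 70 assignments. Alternatives were DESeq2 1.42.0, limma-voom (limma 3.58.1), other scalings and filters, a block for mouse number, Xist as a covariate and each mouse left out. The members, lists and named genes (up to 4 per neutrophil list by lowest unadjusted p, and the 3 tested genes closest in profile to each member) were chosen with earlier results of these data known, and the motifs, the promoter window and the choice of the no-filter medians after the values were seen. The p-values set a difference between groups against the spread of lungs within groups, and take the 8 mice as independent. Nothing in the labels says whether mice shared a litter or cage, so that independence could not be checked. Count totals set precision, and intervals from counts cover counting error only.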

Additional observations from a re-analysis of the deposited data

Results flagged for a closer look

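Each measure with 4 mice per group was examined for 1 lung whose gap to its nearest neighbour, as a share of the group's whole range, was above Dixon's critical value. Of 82 groups examined, 8 were past it, where chance would give about 4.1 (1 in 20). Ltf in TTI-101 mouse 2 was at 525 CPM, against 39.7 to 62.4 CPM in the other 3 (gap share 0.953), and the log2 ratio of Ltf to S100a9 in the same lung was 5.10 against -1.19 to -0.90 (gap share 0.954). The same lung stood apart for Cd177, at 65.8 CPM against 14.9 to 22.7 (gap share 0.847), and for Lyz2, at 11894 CPM against 7852 to 8281 (gap share 0.894). Mpo in TTI-101 mouse 3 was at 0.723 CPM, against 0 counts in mice 1 and 4 and 1 count in mouse 2 (gap share 0.917), and was examined after its counts had been seen. In Control mouse 4, Runx1 was at 136 CPM against 76.2 to 83.6 (gap share 0.876) and the mitochondrial share was 5.56% against 2.44% to 2.85% (gap share 0.867). The total of Control mouse 1 was 26873509 counts, against 16446481 to 18220467 in the other Control lungs (gap share 0.830).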

How the results depend on the processing

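The lowest adjusted p of any member in any alternative run was 0.280. The mature genes, Ly6g, Camp and Ngp kept a positive log2 fold change throughout, and Ltf turned to 0.05, 0.067 and 0.01 without TTI-101 mouse 1, 3 or 4 (range -2.00 to 0.067 with each mouse left out). Genes at an adjusted p under 0.05 numbered 0 in edgeR, 4 in DESeq2, 1 with Xist as a covariate and 0 to 1 with each mouse left out. At an unadjusted p under 0.05 there were 1132 genes, 1849 with no filter and 422 (without TTI-101 mouse 3) to 2498 (without TTI-101 mouse 2) with a mouse left out, and also 2393 without Control mouse 1, 531 without Control mouse 4 and 711 without TTI-101 mouse 1. The granule median of 1.16 became -0.25 with at least 10 counts in every library and -0.26 over members that passed edgeR's filter, an alternative added after seeing the data, both being Ltf alone, and 0.35 with the Xist covariate. It ranged from 0.14 (without TTI-101 mouse 3) to 1.56 with each mouse left out. The Camp to S100a9 difference ranged from -1.72 to 0.27, the last without TTI-101 mouse 1. Why these values moved was not tested. Mice of the same number in the 2 groups had deviations that correlated at 0.39, 0.08, 0.16 and 0.07, and not every mouse correlated best with its own number. Same-number mice matched in sex and had similar library totals, at 26873509 and 25920509 counts for number 1 and 16446481 and 16642630 for number 2. For numbers 3 and 4 the totals were 18220467 and 17982612, and 16948084 and 16075855. The labels do not say whether the numbers pair the mice. The main tests took them as unpaired, and a pairing remains possible. A block for the number gave 0 genes at an adjusted and 1298 at an unadjusted p under 0.05, and medians of 0.88 (mature) and 0.67 (granule). With this block Ltf was at -1.09 (SE 0.56) and Retnlg at 0.82 (SE 0.23), both at edgeR quasi-likelihood adjusted p = 0.577. By number, Retnlg in TTI-101 over Control was 1.29, 1.32, 2.62 and 2.13-fold. Depth limits Ly6g, Camp, Ngp, Mpo and Prtn3, whose counts were mostly under 20 per library.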
